A study of Mus musculus with 6 samples.

Results

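The genes described here are 10 early-response genes of a mouse macrophage line: Egr1, Egr2 and Egr3 of the early growth response (EGR) family, Klf2, Klf4 and Klf6 of the Krüppel-like factor (KLF) family, Nr4a1, Nr4a2 and Nr4a3 of the NR4A orphan nuclear receptors, and Ier2. They were picked by symbol from the 21047 genes of the deposited table, and all 10 were found and passed the filter on low values. The choice was made with the genotype difference in view, a gain of Egr3 against a loss of Klf2, so the levels and fold changes of these 10 genes are a description and carry no test. RNA-seq libraries came from immortalised bone-marrow-derived macrophages (iBMDM), with 3 libraries of the WT line and 3 whose genotype is labelled A20KO, A20 being the ubiquitin-editing enzyme encoded by Tnfaip3. The labels name no stimulus, time or passage, and leave unsaid whether A20KO is 1 clone and whether replicates were cultured apart. The p-values below therefore rest on a spread among libraries that may be technical.

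Early-response genes are switched on within minutes of a signal, without new protein synthesis, and their RNAs and proteins are short-lived. EGR proteins are zinc-finger activators that bind GC-rich sites, and their genes are read out from growth factor and Toll-like receptor signals through the ERK kinases, serum response factor (SRF) and its ELK cofactors. KLF proteins bind GC- and CACCC-rich sites with a related set of zinc fingers. In myeloid cells KLF2 restrains inflammatory activation, KLF4 acts with STAT6 in alternative activation, and KLF6 acts with NF-kB in inflammatory activation. NR4A receptors have a ligand pocket filled by side chains, so their activity follows how much of them is made, and their genes respond to cAMP through CREB. Ier2 encodes a small nuclear protein of the same early wave.

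The promoters of the 3 NR4A genes and of Klf2 are shown because they hold matches to the cAMP response element and to the MEF2 box. RefSeq promoter windows on build GRCm38.p6 were available for 7 of the 10 genes, and the 250 bases before each start site were searched on both strands. Capitals in the NR4A sequences mark the cAMP response element core TGACG, or CGTCA where it lies on the other strand. Capitals in the Klf2 sequence mark a MEF2 box, CTA and TAG around 4 bases that are each A or T. The Nr4a1 window is chr15:101266596-101266845 on the plus strand and in no exon of GENCODE M21, before a RefSeq start that lies 12577 bases past the deposited gene start. Windows of Nr4a2 (chr2:57124004-57124253, minus strand), Nr4a3 (chr4:48045055-48045152, plus strand) and Klf2 (chr8:72318812-72319032, plus strand) are printed up to the deposited gene start.

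Nr4a1: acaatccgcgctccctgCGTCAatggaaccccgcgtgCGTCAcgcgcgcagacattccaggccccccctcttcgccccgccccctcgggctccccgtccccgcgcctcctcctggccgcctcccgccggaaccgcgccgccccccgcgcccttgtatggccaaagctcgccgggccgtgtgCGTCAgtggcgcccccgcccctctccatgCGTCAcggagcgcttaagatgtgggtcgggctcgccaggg
Nr4a2: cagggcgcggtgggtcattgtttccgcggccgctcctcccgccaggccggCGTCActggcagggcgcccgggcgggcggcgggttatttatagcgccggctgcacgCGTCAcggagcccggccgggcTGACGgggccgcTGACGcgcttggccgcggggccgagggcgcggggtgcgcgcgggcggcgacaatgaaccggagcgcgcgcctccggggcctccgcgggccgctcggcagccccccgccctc
Nr4a3: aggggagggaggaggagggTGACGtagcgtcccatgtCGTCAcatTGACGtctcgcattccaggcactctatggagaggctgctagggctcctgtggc
Klf2: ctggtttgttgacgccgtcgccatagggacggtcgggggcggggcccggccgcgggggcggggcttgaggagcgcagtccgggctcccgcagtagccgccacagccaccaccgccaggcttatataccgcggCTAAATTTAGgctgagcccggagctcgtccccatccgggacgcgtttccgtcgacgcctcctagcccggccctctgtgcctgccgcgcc

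Each NR4A window held 4 of these cores, of which the last in Nr4a3 lies 147 bases before the RefSeq start and past the printed stretch. The core was not particular to the NR4A genes and occurred in 5 of 7 windows. Klf2 and Klf4 held 1 each, 241 and 232 bases before the start, and that of Klf2 is printed in lower case. Of all 32851 promoter windows of that length 17.8% held at least 1 core and 0.137% held at least 4. The core is contained in the full palindrome TGACGTCA, which none of the 7 windows held. The MEF2 box CTAAATTTAG of Klf2 begins 118 bases before the start site, and 0.508% of windows held a match to this motif. The EGR site GCGNGGGCG occurred in the windows of Klf2, Klf4, Nr4a1 and Nr4a2, 4 of 7, against 4.7% of all windows. In each of these it overlapped the SP and KLF box GGGCGG, which all 7 windows held, against 32.7% of all windows. The other KLF box searched, CACCC, was in 3 of 7 windows against 52.0% of all, the ETS site CCGGAA in 1 of 7 against 12.03%, TATAA in 3 of 7 against 22.8%, and the NR4A site AAAGGTCA in none against 1.34%. No window of the 7 held the CArG box bound by SRF or a match to the NF-kB motif, found in 1.47% and 3.9% of all windows. A match is a description of the letters and not evidence of binding.

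Library depth was 13308840 to 15130697 reads assigned to genes. Values below are normalized read counts, the deposited values, which are reads divided by 1 size factor per library. The log2 fold change (log2FC) compares A20KO with WT as log2(normalized read count + 1), has its standard error (SE) beside it, and understates the change of genes with few reads. Tnfaip3 had 382 to 437 normalized reads in WT and 189 to 196 in A20KO, which checks the labels only through the level of its RNA. All 8 macrophage markers were in the table, and single markers differed between genotypes in both directions. From WT to A20KO the mean went from 2497 to 5348 normalized reads for Csf1r and from 104 to 623 for Fcgr1, against 9369 to 6295 for Lyz2, 4325 to 2465 for Cd14, 767 to 448 for Itgam and 3708 to 3348 for Cd68. Adgre1 was at 2580 and 2591, and Mertk had no read in WT and 12.4 normalized reads in A20KO. The summed level of the macrophage markers was 23171 to 23706 in WT and 20915 to 21298 in A20KO. Of 33 markers of T cells, B cells, granulocytes, fibroblasts, endothelium and epithelium 15 were in the table, 11 of them under 10 normalized reads on average, and their sum was 438 to 513 in WT and 230.2 to 266 in A20KO, mostly Vwf, Cd79b and S100a8. Their part in the results was not tested. In bulk RNA, fewer cells that express a gene and less of its RNA per cell cannot be told apart.

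The 10 genes did not move together. Across all 17376 genes tested with limma, 39.8% had an adjusted p under 0.05, 20.3% higher and 19.6% lower in A20KO. Of the 10 genes 6 passed the same rule, 4 higher (Egr3, Nr4a2, Klf4 and Ier2) and 2 lower (Klf2 and Klf6). With a difference of at least 2-fold as well, the share of all tested genes was 9.27% (5.26% higher, 4.01% lower), and of the 10 Egr3 and Nr4a2 were higher and Klf2 lower. WT and A20KO libraries had no overlap in range in 46.9% of all tested genes (24.5% higher, 22.4% lower) and in 7 of the 10, 5 higher and 2 lower, with Nr4a1 as the additional one. With edgeR on whole reads 52.2% of 12656 genes passed, and 6 of the 8 early genes that it kept. Since the choice of genes used this contrast, these counts support nothing beyond a description. By the adjusted p of the authors' deposited table, 6 of the 10 genes and 27.2% of all genes were under 0.05.

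**Figure D1:**
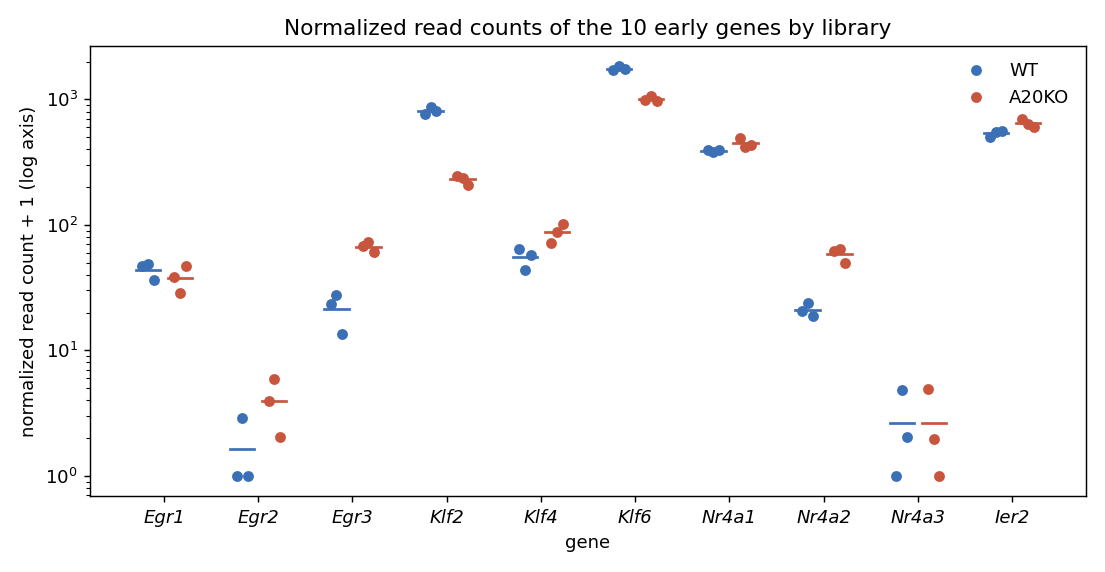
Normalized read count + 1 on a log axis for each of the 10 genes. Points are the 3 libraries of each genotype and bars their means. Klf2 and Klf6 lie lower in every A20KO library, Egr3 and Nr4a2 lie higher in every one, and Egr1, Egr2 and Nr4a3 overlap.

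Among the EGR genes Egr3 was the only one with a detected difference, and Egr2 had too few reads to judge. Egr3 (ENSMUSG00000033730, chromosome 14 from 70077203 to 70082614, plus strand) works with EGR2 in T-cell tolerance and is needed for muscle spindles in mice. It had 22.3, 26.7 and 12.6 normalized reads in WT and 66.3, 72.4 and 59.9 in A20KO. Every A20KO library was above every WT library, 3.22-fold on the means, with a log2FC of 1.7 (SE 0.272). These values rest on 63 WT reads and 199 A20KO reads in all, and WT replicate 3 was the lowest of its group.

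Egr1, the family member best known as a read-out of ERK activity (ENSMUSG00000038418, chromosome 18 from 34859823 to 34864984, plus strand), had 45.6, 47.7 and 35.7 normalized reads in WT and 37.1, 27.4 and 46.2 in A20KO. The genotypes overlapped, with a log2FC of -0.23 (SE 0.258). Egr2, which takes part in alternative activation of macrophages and in myelination (ENSMUSG00000037868, chromosome 10 from 67535475 to 67542188, plus strand), had 0, 2 and 0 reads in WT and 3, 5 and 1 in A20KO. The ratio after adjusting for depth was 4.55 with an exact 95% counting interval of 0.942 to 43.3, so a difference in Egr2 was not detectable at this depth. Intervals cover counting error only.

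The make-up of the summed level of Egr1, Egr2 and Egr3 differed between genotypes. Levels between genes are compared here only as normalized reads per kilobase of the deposited gene length. The summed EGR level was 14.4 ± 3.29 per kilobase in WT (mean ± SD, n = 3) and 24.1 ± 0.13 in A20KO. Egr1 gave 61.6% to 73.6% of it in WT and 25.5% to 42.6% in A20KO. Egr3 gave 26.4% to 35.1% in WT and 56.1% to 68.5% in A20KO. Within single libraries the ratio of Egr3 to Egr1 per kilobase was 0.498, 0.57 and 0.359 in WT and 1.82, 2.69 and 1.32 in A20KO, so Egr1 was the larger in every WT library and Egr3 in every A20KO library.

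**Figure D2:**
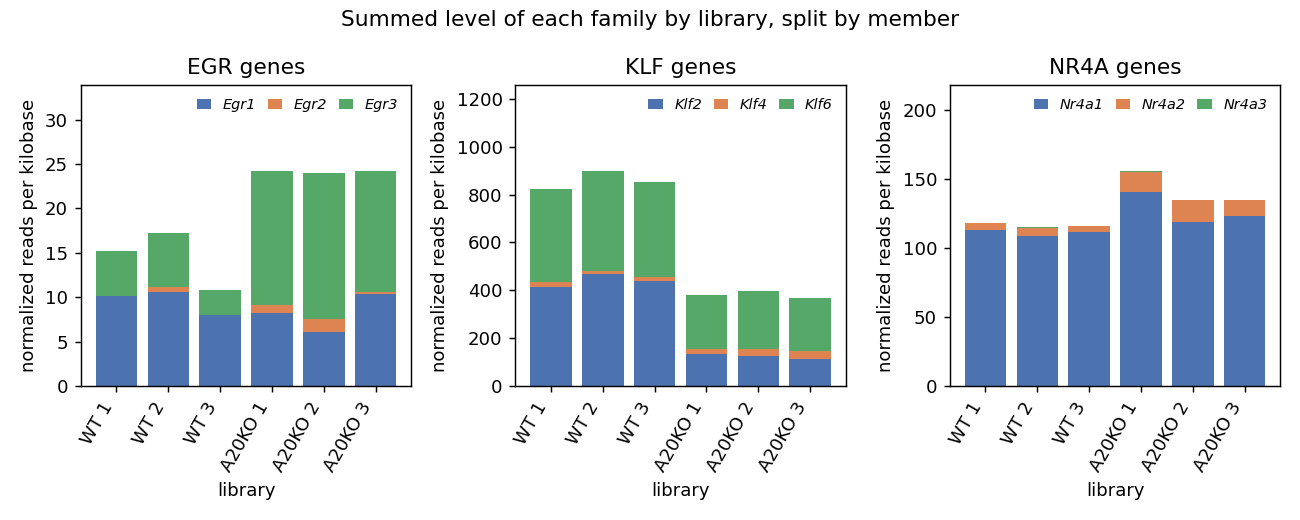
Normalized reads per kilobase summed over the EGR, KLF and NR4A genes in each library, split by member. Each bar is 1 library. The EGR sum is higher and mostly Egr3 in A20KO, the KLF sum is lower, and the NR4A sum is mostly Nr4a1 in all 6 libraries.

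Of the EGR, KLF and NR4A genes described here, the KLF genes were the most abundant family and went in both directions. Klf2 (ENSMUSG00000055148, chromosome 8 from 72319033 to 72321656, plus strand) had 763, 863 and 811 normalized reads in WT and 246, 236 and 206 in A20KO. All WT libraries lay above all A20KO libraries, 3.54-fold on the means, with a log2FC of -1.82 (SE 0.0853). Among tested genes its level per kilobase stood at percentile 89 in WT and 67.7 in A20KO.

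Klf6 (ENSMUSG00000000078, chromosome 13 from 5861482 to 5870394, plus strand) had 1703, 1832 and 1736 normalized reads in WT and 992, 1059 and 979 in A20KO. It was lower in every A20KO library, with a log2FC of -0.8 (SE 0.0535). Klf4 (ENSMUSG00000003032, chromosome 4 from 55527143 to 55532466, minus strand) had 63.1, 42.9 and 56.6 normalized reads in WT and 70.2, 87.1 and 101 in A20KO. Its libraries did not overlap, but the gap between the highest WT and the lowest A20KO library was small beside the spread within A20KO. Its log2FC was 0.66 (SE 0.202), and 0.5 without WT replicate 2 and 0.54 without A20KO replicate 3, at neither of which it passed the limma threshold.

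The summed level of Klf2, Klf4 and Klf6 was lower in every A20KO library than in WT. It was 858 ± 38.6 per kilobase in WT and 382 ± 14.9 in A20KO (mean ± SD, n = 3). Klf2 and Klf6 contributed near-equal shares in WT, 50.3% to 52.0% and 46.4% to 47.2%. In A20KO Klf6 gave 59.1% to 60.7% and Klf2 30.3% to 34.8%, while Klf4 gave 6.03% to 9.0% against 1.57% to 2.52% in WT. Per kilobase, Klf2 exceeded Klf4 by a ratio of 25.6 ± 6.83 in WT and 4.54 ± 1.21 in A20KO. Other KLF genes were left out of the sum and the shares, so the whole family was not summed. In WT and A20KO Klf16 (2674 bases) had 701 and 696 normalized reads, and Klf9 (3263 bases) 440 and 418. Klf13 (7531 bases) had 1504 and 1054.

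Among the NR4A genes Nr4a2 differed most and Nr4a1 made up most of the RNA. Nr4a2, known for its part in dopamine neurons and in macrophages for restraint of NF-kB targets (ENSMUSG00000026826, chromosome 2 from 57106830 to 57124003, minus strand), had 19.4, 22.9 and 17.8 normalized reads in WT and 60.5, 63.6 and 48.3 in A20KO. The groups were well apart, 2.87-fold on the means, with a log2FC of 1.47 (SE 0.271). Nr4a1, required for patrolling monocytes in mice (ENSMUSG00000023034, chromosome 15 from 101254269 to 101274795, plus strand), had 397, 382 and 392 normalized reads in WT and 493, 419 and 432 in A20KO. The A20KO libraries were all above WT but by little, with A20KO replicate 1 the highest, and its log2FC was 0.19 (SE 0.0852). Without A20KO replicate 1 it was 0.12.

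Nr4a3 (ENSMUSG00000028341, chromosome 4 from 48045153 to 48086447, plus strand) was near the limit of detection, with 0, 4 and 1 reads in WT and 4, 1 and 0 in A20KO. Its ratio was 1.01 with an exact 95% counting interval of 0.233 to 4.39. The share of Nr4a2 in the NR4A sum was 3.78% to 4.89% in WT and 8.82% to 11.6% in A20KO, and Nr4a1 gave 94.6% to 96.1% and 88.3% to 91.2%. The 3 genes thus share a count of 4 TGACG cores in the promoter window while their levels per kilobase span 0.271 to 111 in WT.

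Ier2 (ENSMUSG00000053560, chromosome 8 from 84661331 to 84662852, minus strand) had 504, 546 and 558 normalized reads in WT and 703, 637 and 602 in A20KO. It was higher in every A20KO library, 1.21-fold on the means, with a log2FC of 0.27 (SE 0.0743).

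The order of the 10 genes by level per kilobase differed between genotypes. In WT it ran Klf2 (440 ± 27.0), Klf6 (400.1 ± 15.2), Ier2 (352 ± 18.7), Nr4a1 (111 ± 2.14), Klf4 (17.8 ± 3.38), Egr1 (9.58 ± 1.43), Nr4a2 (4.94 ± 0.636), Egr3 (4.66 ± 1.64), Nr4a3 (0.271 ± 0.329) and Egr2 (0.187 ± 0.324). Klf2 and Klf6, Nr4a2 and Egr3, and Nr4a3 and Egr2 overlapped in range there. In A20KO Ier2 came first at 425 ± 33.9, before Klf6 at 230.1 ± 9.79, Nr4a1 at 128 ± 11.3 and Klf2 at 124 ± 11.2. Klf4 followed at 28.2 ± 5.03, then Egr3 at 15.03 ± 1.42, Nr4a2 at 14.2 ± 1.99, Egr1 at 8.23 ± 2.1, Egr2 at 0.87 ± 0.565 and Nr4a3 at 0.272 ± 0.339. Ranges of neighbours overlapped for Nr4a1 and Klf2, for Egr3 and Nr4a2, and for Egr2 and Nr4a3. The order of Ier2 and Klf2 relative to each other was reversed, with a Klf2 to Ier2 ratio of 1.2 to 1.3 in WT and 0.282 to 0.305 in A20KO.

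Within a genotype the 8 genes with at least 10 reads in every library showed no library in which all of them lay above the mean of their genotype. Deviations from the genotype mean on the log2 scale had medians of -0.01, 0.07 and -0.01 in WT replicates 1 to 3 and 0.06, 0.04 and -0.08 in A20KO replicates 1 to 3. In WT replicate 2 and in A20KO replicate 1, 6 of the 8 lay above the mean of their genotype, and in A20KO replicate 3 only 2 did, Egr1 and Klf4. The lowest single deviation was that of Egr3 in WT replicate 3, at -0.6.

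No gene of GENCODE M21 overlaps any of the 10, so their reads are not shared with an antisense partner. At most 2.0% of the 31-base words of any of them, in Klf4, also occur in another gene.

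**Figure D3:**
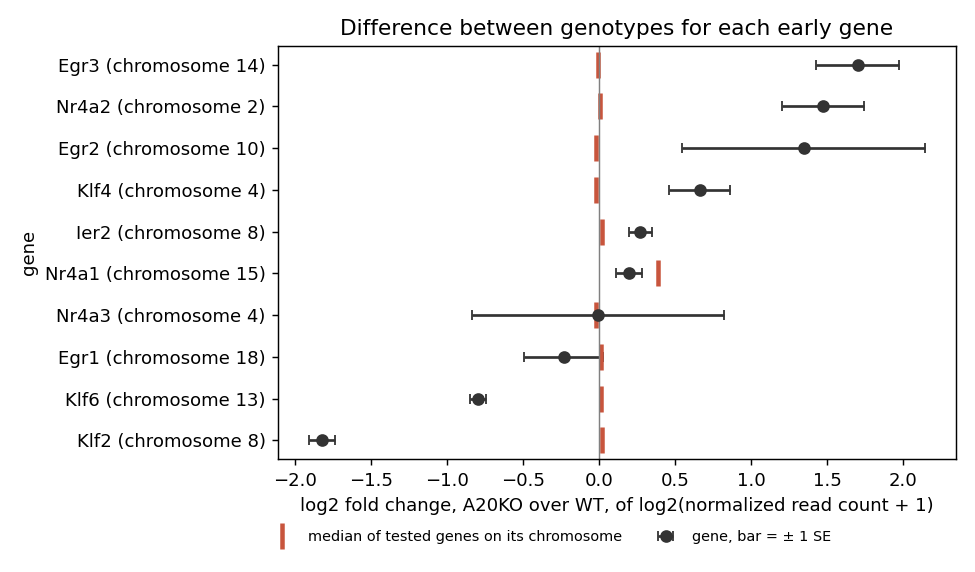
Log2 fold change of each of the 10 genes with 1 SE to each side, and the median log2FC of the tested genes on the same chromosome as a vertical mark. Nr4a1 lies below the median of chromosome 15, and Klf2 lies far from that of chromosome 8.

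The chromosome that carries each gene gave a local background. Of 662 tested genes on chromosome 15, 355 rose and 47 fell in A20KO, with a median log2FC of 0.38 and quartiles of 0.07 and 0.7. Nr4a1, at 0.19, was above 33.4% of them and 0.19 below their median. What a gain along chromosome 15 adds to Nr4a1 cannot be told apart from other differences between the lines. On chromosome 8, which holds both Klf2 and Ier2, the median was 0.02. Only 1.04% of its tested genes had a lower log2FC than Klf2, while Ier2 was above 72.9% of them. The medians of the other chromosomes that hold these genes were between -0.02 and 0.01.

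Nearest tested genes, with predicted genes, pseudogenes and unnamed transcripts left out, did not share the differences of Egr3, Klf2 or Nr4a2 on both sides. Bin3, a BAR-domain protein gene 17490 bases past Egr3, had a log2FC of -0.07 (limma adjusted p = 0.48). Pebp4, 17284 bases on the other side, had 8.36 ± 5.59 and 16.3 ± 0.49 normalized reads and a log2FC of 1.16 (adjusted p = 0.046). The call of Pebp4 was lost without WT replicate 2 (0.46, adjusted p = 0.455) or without A20KO replicate 1, 2 or 3 (1.15, 1.15 and 1.19, adjusted p = 0.111, 0.11 and 0.0755), and with edgeR (adjusted p = 0.0948). Ap1m1, a clathrin adaptor subunit gene before Klf2, had a log2FC of -0.06 (adjusted p = 0.4). Eps15l1, an endocytic adaptor gene after Klf2, fell by 0.27 (adjusted p = 0.000426, and 0.0611 in limma without the variance trend). Gpd2, the mitochondrial glycerol-3-phosphate dehydrogenase gene beside Nr4a2, fell by 0.44 (adjusted p = 1.2e-09), against the higher Nr4a2. Atg101, an autophagy initiation gene 9476 bases past Nr4a1, rose by 0.64 (adjusted p = 1.1e-09), more than Nr4a1. Of the 20 neighbours of all 10 genes 8 rose, 3 fell and 9 did not pass. Gaps ran from 2322 to 3887609 bases, the longest to Arl6ip6 beside Nr4a2. Akr1e1 and Pitrm1, on either side of Klf6, lay 1252307 and 677754 bases away. Besides Pebp4, the call of Cacna1a beside Ier2 (log2FC 0.89, adjusted p = 0.041) ended without WT replicate 3 (0.44, adjusted p = 0.362) or A20KO replicate 1, 2 or 3 (0.97, 0.82 and 0.89, adjusted p = 0.0641, 0.129 and 0.0759). That of Ado beside Egr2 (0.19, adjusted p = 0.019) ended without WT replicate 3 (0.16, adjusted p = 0.0826) or A20KO replicate 1 (0.14, adjusted p = 0.164), and that of Etf1 beside Egr1 (0.1, adjusted p = 0.013) without WT replicate 3 (0.08, adjusted p = 0.09). That of Sec61b beside Nr4a3 (-0.23, adjusted p = 0.0033) ended without WT replicate 2 (-0.18, adjusted p = 0.0568). In limma without the variance trend these 5 calls were lost as well, with adjusted p of 0.111 to 0.254, and Grasp beside Nr4a1 (-0.46, adjusted p = 0.084) passed (adjusted p = 0.0226).

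**Figure D4:**
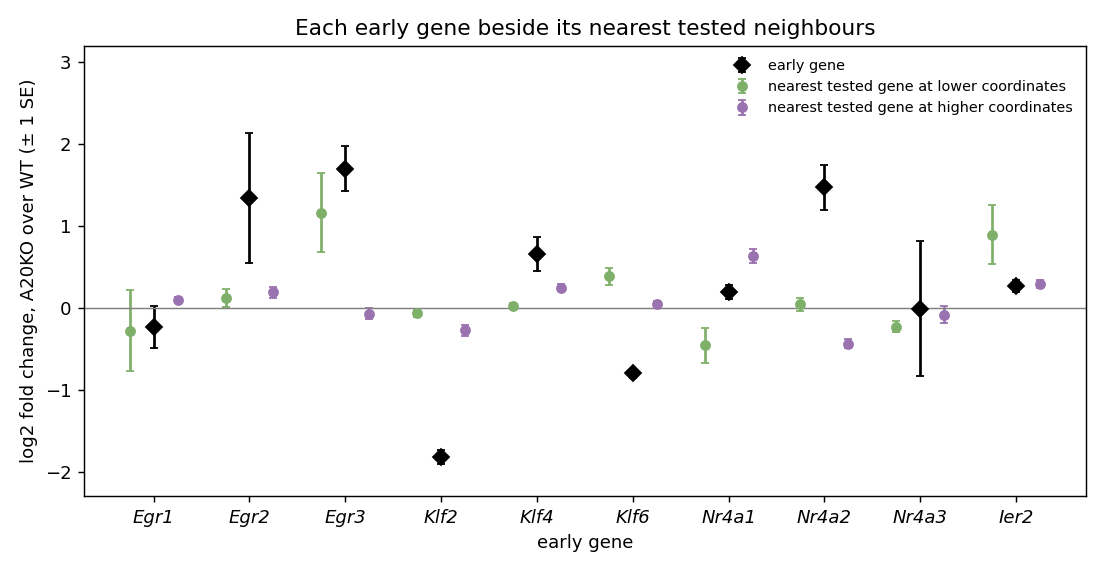
Log2 fold change with 1 SE to each side for each of the 10 genes and for the nearest tested gene on either side. Klf2, Klf6 and Nr4a2 stand away from both neighbours, while Nr4a1 lies between its neighbours and Ier2 close to Nacc1. The neighbours of Klf6 lie 1252307 and 677754 bases from it, and Arl6ip6 lies 3887609 bases from Nr4a2.

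Genes with the pattern closest to that of Egr3 and Klf2 were found by distance. It was taken between log2 values over the 6 libraries, each gene centred on its own mean. Candidates were 10655 genes with a mean of at least 10, after leaving out the 10 themselves, predicted genes, pseudogenes and unnamed transcripts. Closest to Egr3 was Syt7, a calcium sensor of lysosome exocytosis, with 16.3 ± 6.86 normalized reads in WT and 56.5 ± 6.09 in A20KO at a distance of 0.289. Rad9b, Nlgn2, C4b and Dapk1 followed at distances of 0.422 to 0.503. Reads of C4b can be uncertain because of its near-identical copy C4a. Closest to Klf2 was Adamtsl5, with 528 ± 27.0 normalized reads in WT and 146 ± 18.9 in A20KO at a distance of 0.153. Rhof, Eml2, Rhoc and the chemokine gene Ccl4 followed at 0.199 to 0.239. These genes were selected for their likeness, so their own fold changes are no further result.

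Genes around the 10 were counted by list, and members were left out of the lists. The lists were chosen with earlier results of these data known, and their counts are to be read beside the 20.3% of all tested genes that were higher and 19.6% lower, and a median log2FC of 0.01. Over all lists 114 genes were tested, of which 35 rose and 49 fell.

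Genes of the inputs to the EGR genes differed in both directions. Of 15 tested ERK cascade genes 4 rose and 8 fell, with a median log2FC of -0.1. Mapk3, which encodes ERK1, fell to 871 ± 37.8 normalized reads from 1304 ± 25.02 in WT (log2FC -0.58, SE 0.0573, limma adjusted p = 1.7e-13). Rps6ka3, an RSK kinase gene, rose by 0.31 and Map2k2, which encodes MEK2, by 0.35. Of 8 tested genes of SRF, its cofactors and the EGR corepressors 3 rose and 2 fell. Elk3, a ternary complex factor, rose from 214 ± 26.2 to 446 ± 24.2 (log2FC 1.06, SE 0.0996, adjusted p = 3.4e-14). Srf fell by 0.32 (adjusted p = 0.0979 in limma without the variance trend) and its coactivator Mkl2 by 0.42, while the related Mkl1, on chromosome 15, rose by 0.29. The corepressors Nab1 and Nab2, which EGR proteins recruit, had log2FC values of 0.11 and -0.07 and did not pass (adjusted p = 0.1 and 0.72).

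ERK5 and MEF2 are known to drive Klf2 and Klf4 in endothelial cells, and class IIa HDACs repress MEF2. Of 12 tested genes of this list 6 rose, 3 fell and 3 did not pass, with a median of 0.23. Those that rose were Mef2a, Mef2c, Mef2d, Map3k3 and the deacetylase genes Hdac5 and Hdac9. The deacetylase gene Hdac7, on chromosome 15, fell from 39.6 ± 4.04 to 23.2 ± 9.0 normalized reads (log2FC -0.81, SE 0.296, limma adjusted p = 0.023). Its genotypes nearly touched, at 34.9 in WT replicate 1 and 33.2 in A20KO replicate 1. Hdac4 had a log2FC of -0.13 and did not pass (limma adjusted p = 0.14). Mef2c rose from 647 ± 21.6 to 1617 ± 95.9 normalized reads (log2FC 1.32, SE 0.059, limma adjusted p = 6.7e-29). Hdac9, a class IIa deacetylase that MEF2 proteins recruit, rose from 8.17 ± 2.74 to 165 ± 17.4 (log2FC 4.22, SE 0.266, adjusted p = 1.5e-21). Mapk7, which encodes ERK5, fell from 836 ± 56.1 to 555 ± 34.1 (log2FC -0.59, adjusted p = 1.1e-10), and Map3k2, a kinase upstream of it, fell by 0.22 (adjusted p = 0.0042, and 0.0847 in limma without the variance trend). RNA levels do not show the activity of these kinases or of MEF2.

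The cAMP and CREB list, the input best known for the NR4A genes, had 5 of 16 tested genes higher and 7 lower, with a median of -0.04. Pde4b, which degrades cAMP, fell from 307 ± 36.5 to 104 ± 24.3 normalized reads (log2FC -1.58, SE 0.136, limma adjusted p = 7.0e-15). Creb1 fell by 0.44 (adjusted p = 1.1e-08). Ep300, a CREB coactivator, and Atf1, a CREB relative, rose by 0.5 and 0.29, and both lie on chromosome 15. Of the RXR genes, whose products pair with NR4A1 and NR4A2, 2 were tested and both rose. Rxra rose from 11.2 ± 1.37 to 56.6 ± 13.9 (log2FC 2.21, SE 0.312, adjusted p = 1.5e-08) and Rxrb by 0.21 (adjusted p = 0.00072), which did not pass in limma without the variance trend (adjusted p = 0.0545).

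**Figure D5:**
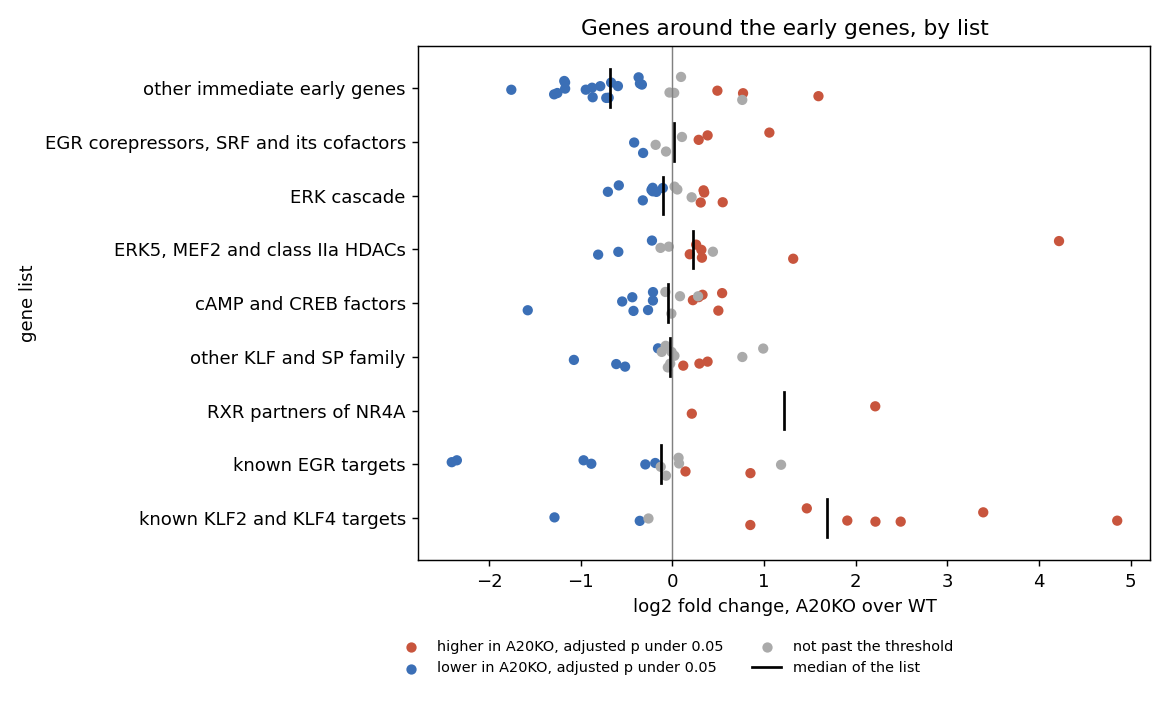
Log2 fold change of each tested gene in the lists around the 10 genes. A point is 1 gene, coloured by direction where it passed the limma threshold, and the vertical mark is the median of the list. Most other immediate early genes lie below 0, and most listed KLF2 and KLF4 targets lie above 0.

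Other early genes were mostly lower, as Klf2 and Klf6 were and Egr3 and Nr4a2 were not. Of 24 tested immediate early genes outside the 10, 17 fell and 3 rose, with a median log2FC of -0.68. Maff, a small MAF factor gene on chromosome 15, fell from 23721 ± 914 to 14399 ± 546 normalized reads (log2FC -0.72, SE 0.0288, limma adjusted p = 9.9e-30). The AP-1 gene Fosl1 fell by 1.29. Zfp36, which encodes an mRNA decay factor, rose by 0.49. Trib1, a pseudokinase gene on chromosome 15, rose from 92.6 ± 21.5 to 277 ± 14.6 (log2FC 1.59, SE 0.138, adjusted p = 1.5e-15). Of 15 tested KLF and SP relatives 3 rose and 4 fell, with a median of -0.02. Klf7 fell from 430 ± 11.2 to 205 ± 29.5 (log2FC -1.07, adjusted p = 6.2e-14) and Klf13 by 0.51. Among those that rose, Sp2 had a log2FC of 0.3 (adjusted p = 0.011), a call lost without WT replicate 2 (0.19, adjusted p = 0.15) or A20KO replicate 2 (0.25, adjusted p = 0.0735), with DESeq2 (adjusted p = 0.0543) or in limma without the variance trend (adjusted p = 0.134). Sp1, on chromosome 15, was at 0.12 (adjusted p = 0.044) and no longer passed without WT replicate 3 (0.07, adjusted p = 0.31), A20KO replicate 2 (0.12, adjusted p = 0.1) or A20KO replicate 3 (0.1, adjusted p = 0.15), nor with edgeR (adjusted p = 0.0552), DESeq2 (adjusted p = 0.0943) or limma without the variance trend (adjusted p = 0.257).

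Genes known as EGR targets differed in both directions. Of 13 tested 2 rose and 6 fell, with a median of -0.13. Tnf, also a target of NF-kB, fell from 2562 ± 25.6 to 483 ± 31.7 normalized reads, and Rnf128, an E3 ligase gene of T-cell anergy, fell by 0.97 (limma adjusted p = 2.7e-29). Tgfb1 rose by 0.14 (adjusted p = 0.0026, and 0.136 in limma without the variance trend). Pdgfa had 29.3 ± 11.5 and 50.6 ± 2.25 normalized reads, a log2FC of 0.85 (adjusted p = 0.0087), a call lost without WT replicate 2 (0.49, adjusted p = 0.158), with DESeq2 (adjusted p = 0.0729) or in limma without the variance trend (adjusted p = 0.136).

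Of 10 tested genes known as KLF2 or KLF4 targets in lymphocytes, endothelium or macrophages 7 rose and 2 fell, with a median of 1.69, and 1.68 with the 2 genes without a WT read set at a floor of 3 reads over the group. S1pr1, the sphingosine-1-phosphate receptor that KLF2 activates in T cells, rose from 6.86 ± 3.39 to 77.3 ± 10.6 normalized reads (log2FC 3.39, SE 0.331, limma adjusted p = 1.4e-13). Cdkn1a, a cell cycle inhibitor gene that KLF4 activates, rose from 696 ± 73.8 to 1253 ± 84.9 (log2FC 0.85, adjusted p = 7.2e-17). Itgb7, an integrin gene that KLF2 controls in T cells, lies on chromosome 15 and fell from 2173 ± 52.5 to 892 ± 58.4 (log2FC -1.29, adjusted p = 1.6e-30). Pparg fell by 0.35.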

How the data were processed

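Per the labels' protocols, RNA was taken up in Trizol and a SMARTer kit for mRNA was used. Per the submitters' processing notes the genome was mm10. Aligner, counter and strand setting: not given in the sources used here. The authors deposited 1 table with a normalized signal per library, not divided by gene length, and, per the file headers, group means, a log2 fold change, p-values (raw and adjusted) and gene length. Dividing by what 1 read is worth in a library gave a whole number for 100% of values, within 0.001 reads, so whole reads were recovered.

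Genotypes followed the sample titles. Values were taken as log2(value + 1), genes whose mean was under 1 were dropped, and limma 3.58.1 in R 4.3.3 (trend and robust) compared the genotypes with Benjamini-Hochberg adjustment over all 17376 genes and a threshold of 0.05. On the recovered reads, the quasi-likelihood test of edgeR 4.0.16 passed 6603 of 12656 genes and DESeq2 1.42.0 passed 5766, both as alternatives. Leaving out each library, other pseudocounts and filters, quantile normalization, limma without the variance trend and a replicate block were also run, and the procedure was tested on simulated data. Replicates differed by more than sampling noise (chi-square 2.67 to 3.6 per degree of freedom), so each library was counted once.

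The 10 genes, the lists and the search motifs were chosen with earlier results of these data known. Named genes were the 10, Tnfaip3, up to 2 list members per direction by smallest adjusted p, both RXR genes tested, the 5 genes nearest in pattern to Egr3 and to Klf2, and the nearest tested genes on each side. One gene that this rule names is not reported here. Genes named outside that rule, among them Nab1, Nab2 and the cell markers, were chosen after their values were seen. Lists had no set test. Promoter sequences are from RefSeq (GRCm38.p6) and gene models and shared words from GENCODE M21.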

Additional observations from a re-analysis of the deposited data

How the results depend on the processing

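Over 16 alternatives the number of genes past the threshold was 4775 to 6907, against 6917 in the main analysis, the number among the 10 early genes 4 to 7, and the number among the list genes 64 to 84. The lowest of each came from limma without the variance trend, under which 15 named genes no longer passed: Ier2, Klf4, Ado, Cacna1a, Eps15l1, Etf1, Map3k2, Pdgfa, Pebp4, Rxrb, Sec61b, Sp1, Sp2, Srf and Tgfb1. With DESeq2 Ado, Cacna1a, Pdgfa, Pebp4, Sp1 and Sp2 did not pass. Leaving out 1 library gave 6214 to 6515 genes, 5 to 7 of the 10 and 77 to 84 list genes. Nr4a1 passed after quantile normalization, with edgeR and RLE factors, and without A20KO replicate 2. The log2 fold change was 1.4 to 1.91 for Egr3, 1.32 to 1.59 for Nr4a2, -1.88 to -1.75 for Klf2 and -0.83 to -0.77 for Klf6 over the alternatives. That of Egr2 ran from 0.49 with a pseudocount of 5 to 3.25 with one of 0.1. Among the values available under the alternatives, signs changed only when a library was left out. These were Nr4a3 (-0.61 to 0.58) and Reep2, a neighbour of Egr1 (-0.53 to 0.12), which were not past the threshold. The authors' deposited log2 fold change of Nr4a3 was 0.0087, against -0.008 in the main analysis. With the replicate number as a block, 6729 genes, 6 of the 10 and 82 list genes passed. Deviations of same-numbered libraries correlated at -0.01 to 0.0024, so no pairing by number was detected. All genes with a mean of at least 1 counted equally there, and counting noise can mask a pairing, so none is excluded. Of 1192 values of 75 named genes under the alternatives 1128 kept their direction and side of the threshold. Egr2 and Nr4a3, with 11 and 10 reads over all libraries, were too low for any difference to be read.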

Other observations

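Among the listed KLF2 and KLF4 targets, genes chosen here after their values were seen were low in WT and higher in A20KO. Mrc1, the mannose receptor of alternatively activated macrophages, was at 4.42 ± 4.45 in WT and 124 ± 14.7 normalized reads in A20KO (n = 3 each), a difference of log2 4.85 (SE 0.412, limma adjusted p = 5.8e-11). Arg1, the arginase that KLF4 and STAT6 induce, had 3.25 ± 2.14 and 13.9 ± 2.52 (adjusted p = 0.0025), and Thbd, the thrombomodulin gene that KLF2 activates in endothelium, had 9.66 ± 3.91 and 27.5 ± 5.65 (adjusted p = 0.0013). Among the other early genes Myc, on chromosome 15, fell from 73.7 ± 16.8 to 21.4 ± 6.35 normalized reads (log2 difference -1.76, SE 0.264, adjusted p = 8.1e-08), against the higher levels of most genes of that chromosome.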
